A study of Bos taurus with 12 samples.

Results

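The 100 brightest named probes of the bovine endometrium are described here by function and by how steady they were over season and uterine side. Probes were ranked by their mean over 12 arrays of the log2 signal relative to the array's 75th percentile. Probes without a gene symbol were dropped, as were probes described as a ribosomal protein, NADH dehydrogenase, cytochrome c oxidase, ATP synthase or heat shock protein, and 14 genes by name (AKR1B1, SERPINA14, CLU, VIM, SPARC, COL1A1, FN1, IGFBP1 to IGFBP6 and SOD1). The brightest probe stood for each gene, and the first 100 of 5721 genes left in this ranking are the members. Their levels ran from 7.32 to 3.71 log2 units above the array's 75th percentile, and the members were chosen by these measured levels, which are given as a description with no test. The last members inside were ITGB5 (3.71), TMSB10 (3.71) and SNRPD3 (3.71), and the first genes outside were NR2F1 (3.69), NDRG2 (3.69) and PRPF8 (3.68). The last member stood at place 286 among the 15208 probes of the array. Of these 286 probes, 118 had no symbol here, 61 were dropped by their description, 3 by name, and 4 were further probes of a member. The array's own descriptions decide what is dropped, so RPL27A and FAU (parts of the ribosome), COX4I1 and COX6A1 (subunits of cytochrome c oxidase) and HSP90B1 (a chaperone of the heat shock family) stayed in.

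The tissue was endometrium, the lining of the uterus, biopsied from Japanese-Black cows at cycle day 15, when a corpus luteum (CL) is active in one ovary. Biopsies came from the uterine horn next to that ovary (CL side) or from the opposite horn (non-CL side), in summer or autumn, which gave 4 groups of 3 arrays: CL side in summer, non-CL side in summer, CL side in autumn and non-CL side in autumn. The submitters' design text puts summer in early September and autumn in mid-November of consecutive years, and no treatment is named. Whether the replicates were separate cows is not stated, so the p-values reflect only how far these samples differ from one another.

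The endometrium is built of a luminal and glandular epithelium on a stroma rich in fibroblasts and vessels, above the smooth muscle of the uterine wall. In the luteal phase progesterone prepares it to secrete proteins, ions and enzymes into the uterine lumen, where an early embryo would live on them. Transcripts that fill a large part of the messenger pool in such a tissue usually serve protein synthesis, the cytoskeleton, the matrix, secretion and the handling of iron and oxygen radicals.

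A probe's brightness also depends on its sequence, so levels of different probes are not set against each other as transcript amounts. Of the members, 9 had further probes, 10 in all, and each member is its brightest probe by the rule. The brightest probe exceeded another probe of the same gene by 1.51-fold for EEF1A1, 1.59-fold for TIMP2, 12.1-fold for TIMP3 and 930-fold for PDIA6. The SD over the 12 arrays, brightest probe first, was 0.39 and 0.38 log2 units for the probes of TIMP2, 0.48 and 0.46 for those of BOLA, and 0.26 and 0.25 for those of EEF1A1. It was 0.16 and 0.24 for TIMP3 and 0.20 and 0.70 for PDIA6, whose other probe was at a log2 level of −5.90. It was 0.15 and 0.13 for HINT1, with probes 117-fold apart, and 0.16 and 0.14 for COX6A1, with probes 7.77-fold apart.

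The probes are 60 bases long, and where they lie in their transcripts was not looked up. The hexamer AATAAA, the usual poly(A) signal, was found on the probe strand in 25 of the 100 members, in 27.0% of the next 100 genes and in 11.3% of all 15208 probes, which have the same length. Read on the other strand (TTTATT), it was found in 7 members and in 4.14% of all probes. The variant ATTAAA was found in 4 members and in 3.97% of all probes. In 15 of the 25 members at most 12 bases followed the hexamer. The median GC content was 41.7% for the members and 43.3% for all probes. The array has 2 families of probe names, and 79.0% of the members and 66.6% of all probes belong to the larger, with names starting in ABR. In that family AATAAA was found in 20.3% of the members and 8.91% of all probes. The windows below are 30 bases of the array's own probes, 5′ to 3′, with AATAAA in capitals. They are shown for the members that hold it among the 12 brightest, the 8 steadiest and the 12 most variable, since these are the molecules behind the values that follow: MGP and EEF2 from the brightest, EIF1 from the steadiest, and PENK, CST6, GM2A and ITGB5 from the most variable.
MGP: tgattcttccatAATAAActtctggttgga
EEF2: ttagtgccattggaatAATAAActcgacat
EIF1: tagtgtaactccttcatgcAATAAActgaa
PENK: tttatttttgacacaatgccAATAAAtgcc
CST6: agttccttggaccgtatctacggcAATAAA
GM2A: gcctggaatggtAATAAAtctttttgactt
ITGB5: tgatcatgtttgtatgaAATAAAatgatcg
These members were chosen for holding the hexamer, so that all of them carry it says nothing about steadiness. A link between the hexamer and the spread was not tested.

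A single array stood apart and touches most results. The 75th percentile of the signal was 2007 on replicate 2 of the CL side in summer, hereafter the dim array, and 3516 to 4418 on the other 11. It correlated with the others at a median of 0.928, whereas any pair of the other 11 correlated at 0.972 or more. All members were well above background on all 12 arrays. They are 0.658% of the probes and carried between 11.3% (the dim array) and 12.6% of the summed signal. Markers of the tissue were checked on the same arrays: 11 of 12 epithelial, 6 of 7 stromal, 7 of 7 smooth muscle and 10 of 11 leukocyte markers on the array were well above background on all 12. Of the 5 red-cell markers ALAS2 and AHSP were well above background on all 12 arrays, HBB and SLC4A1 on 1 and HBA on 0. Of the 6 ovary and placenta markers STAR, CYP17A1 and INSL3 were so on all 12, CYP11A1 on 8, HSD3B1 on 6 and CSH2 on 0. On the dim array 8 of 12 epithelial markers were above, and 7 of 7 stromal markers below, every other array. The epithelial score, the mean log2 difference of the markers from their 12-array means, was 1.23 there and −0.48 to 0.16 elsewhere, and the stromal score −1.65 there and −0.38 to 0.73 elsewhere. The scores of the dim array were 1.93 for squamous epithelium (−0.88 to 1.14 elsewhere), 0.82 for plasma cells (−0.58 to 0.23), 0.50 for endothelium (−0.36 to 0.28), 0.45 for ovary and placenta (−0.30 to 0.32), 0.27 for red cells (−0.26 to 0.23) and 0.27 for leukocytes (−0.37 to 0.30). The red-cell score rests on the 2 genes tested, ALAS2 and AHSP. ALAS2 was −0.70 on the dim array and −1.45 to −0.94 on the others, and AHSP −3.83 and −4.19 to −3.61. The part of these cell types in the members' values was not tested. In such bulk samples fewer cells of a type and less RNA per cell cannot be told apart.

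Most members were steady. The SD over the 12 arrays could be taken for 97 members and had a median of 0.23 log2 units, with the middle 50% between 0.16 and 0.34. The same median was 0.20 for the next 100 genes of the ranking (91 measured) and 0.31 for all 12361 probes measured. Of the members, 38 had an SD under 0.2 and 9 over 0.5, against 23.8% and 23.2% of all probes. Without the dim array the medians fell to 0.18 for the members, 0.17 for the next 100 and 0.25 for all probes, and 4 members stayed above 0.5. The SD within groups, pooled over the 4 groups, had a median of 0.22 for the members and 0.31 for all probes. Levels chose the members, so their spread is given as a description and was not tested. LAMP1 and PEBP1 were marked as outlier spots on 11 arrays and H3-3A on 6, and these 3 have no SD here.

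**Figure D1:**
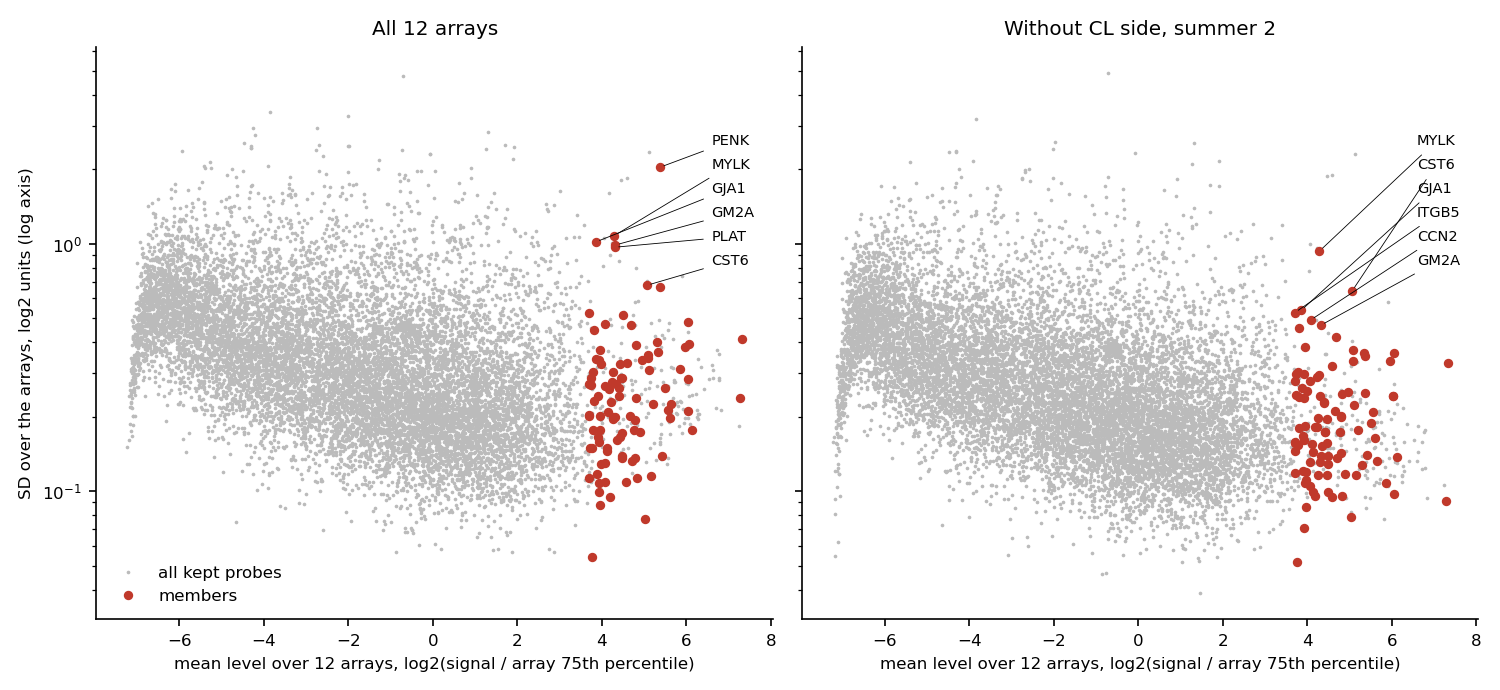
SD over the arrays (log axis, log2 units) against the mean level of each probe, for all kept probes (grey) and the members (red), with all 12 arrays on the left and without CL-side summer replicate 2 on the right. PENK lies at 2.03 on the left and is no longer among the 6 named members on the right, where MYLK (0.93) and CST6 (0.64) are highest.

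The 4 groups had close means for most members. For 96 members measured in every group, the highest and the lowest of the 4 group means differed by a median of 0.29 log2 units, against 0.36 for all probes. The difference was under 0.5 for 74 members (77.1%, against 66.6% of all probes) and over 1 for 5, PENK, GJA1, PLAT, GM2A and COL3A1. Without the dim array it was under 0.5 for 86 members (89.6%, against 77.4%) and over 1 for none of them. The closest means were those of NUMA1, a spindle protein (0.05), PSMB4, a proteasome subunit (0.06), NME1, a nucleoside diphosphate kinase (0.06), and CD63, a lysosomal membrane protein (0.07).

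The largest departures came from few arrays. Of 1153 values, 22 lay more than 1 log2 unit from the member's own median, in 17 members, and 12 of these 22 were on the dim array and 4 on CL-side autumn replicate 2. The dim array was the highest array for 29 members and the lowest for 22. The 29 include TMSB4X and RPL27A, which were saturated on other arrays, so that their rank there cannot be read. CL-side autumn replicate 2 was highest for 21 and lowest for 13. The median distance from the member's median was 0.38 on the dim array, 0.21 on CL-side autumn replicate 2 and 0.075 to 0.13 on the other 10.

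**Figure D2:**
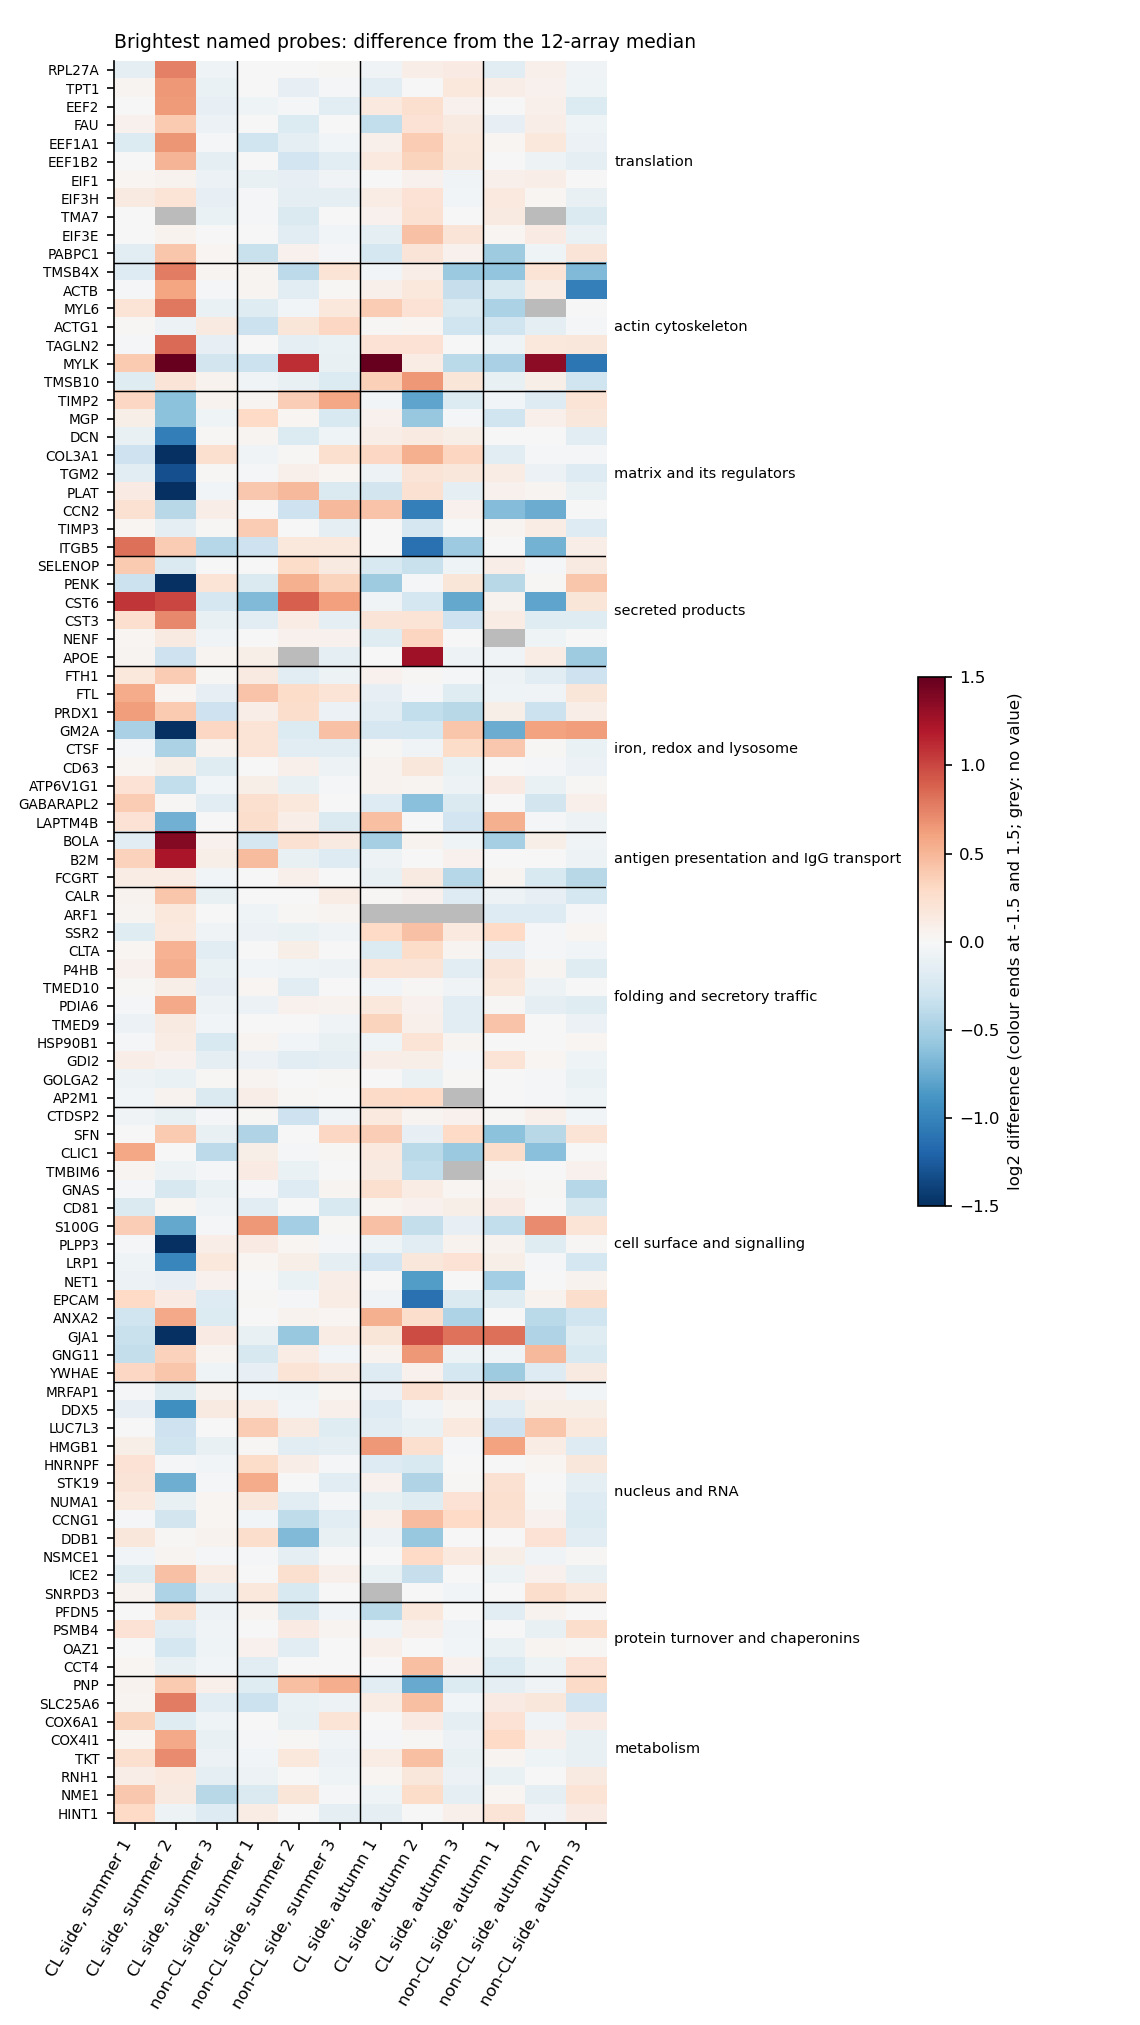
Log2 difference of each of 96 members from its own 12-array median, by array (columns) and functional group (blocks of rows), with grey for spots without a value. The column of CL-side summer replicate 2 is dark blue for PENK, PLAT, GM2A, GJA1 and COL3A1 and dark red for MYLK, BOLA and B2M.

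The members fall into 11 functional groups, which were drawn up after their names were known and are described without a test. Protein synthesis held 11 members: the ribosomal RPL27A and FAU, the elongation factors EEF1A1, EEF1B2 and EEF2, the initiation factors EIF1, EIF3E and EIF3H, the poly(A)-binding protein PABPC1, the translationally controlled TPT1 and the ribosome-associated TMA7. Their SDs ran from 0.077 (EIF1) to 0.26 (EEF1A1), with a median of 0.21, or 0.14 without the dim array. TPT1, EEF2, FAU, EEF1A1, EEF1B2 and PABPC1 had their highest value on the dim array. RPL27A did too, but it was saturated on 7 other arrays, and those values are only bounds. TPT1 was 6.65 on the dim array and 5.84 to 6.16 on the other 11, and EEF2 was 6.24 there and 5.40 to 5.84 elsewhere.

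Folding and traffic along the secretory path was the steadiest of the larger groups, with a median SD of 0.16 over 12 members, or 0.12 without the dim array. It held CALR, HSP90B1, P4HB and PDIA6, which fold proteins in the endoplasmic reticulum, SSR2 of the translocon, the cargo receptors TMED9 and TMED10, the Golgi protein GOLGA2, the small GTPase ARF1, the clathrin chain CLTA, the adaptor AP2M1 and GDI2, which recycles Rab GTPases. The largest SD of the group was 0.21 (P4HB). CALR, P4HB, PDIA6, CLTA and ARF1 were highest on the dim array, PDIA6 at 4.51 against 3.76 to 4.10 on the others. Protein turnover and chaperonins held 5 members with SDs of 0.099 to 0.18, among them PSMB4 (proteasome), OAZ1 (antizyme, which marks the polyamine enzyme ornithine decarboxylase for breakdown), PFDN5 (prefoldin) and CCT4 (chaperonin).

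Metabolic members were the respiratory COX4I1 and COX6A1, the mitochondrial ADP/ATP carrier SLC25A6, the transketolase TKT, PNP, which cleaves purine nucleosides, NME1, the nucleotide hydrolase HINT1 and the ribonuclease inhibitor RNH1. These 8 had a median SD of 0.22 and a range from 0.11 (RNH1) to 0.36 (PNP). Nuclear and RNA-binding members numbered 13: the histone variant H3-3A, the chromatin protein HMGB1, the helicase DDX5, the splicing and RNA proteins HNRNPF, LUC7L3 and SNRPD3, the elongation complex member ICE2, NUMA1, NSMCE1 and DDB1 of DNA repair, the cyclin CCNG1, MRFAP1 and STK19. Their median SD was 0.22 and the highest 0.33 (STK19). DDX5 was 3.62 on the dim array and 4.34 to 4.67 on the others.

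Actin and its partners held 7 members: the actins ACTB and ACTG1, the actin-sequestering thymosins TMSB4X and TMSB10, the myosin light chain MYL6, the myosin light chain kinase MYLK, which starts smooth muscle contraction, and the transgelin TAGLN2. The median SD was 0.34, or 0.28 without the dim array, from 0.20 (ACTG1) to 1.07 (MYLK). ACTB, MYL6, MYLK and TAGLN2 were highest on the dim array. So was TMSB4X, but it was saturated on 6 other arrays, whose values are only bounds. ACTB, often taken as a reference gene, had 6.02, 6.62 and 6.0 on the CL side in summer, 6.07, 5.87 and 6.04 on the non-CL side in summer, 6.11, 6.18 and 5.69 on the CL side in autumn and 5.80, 6.14 and 5.0 on the non-CL side in autumn. It was high on the dim array and low on non-CL autumn replicate 3, and the groups overlapped.

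The matrix group held the collagen chain COL3A1, the proteoglycan DCN, MGP, which restrains calcification, the protease inhibitors TIMP2 and TIMP3, the matricellular CCN2, the integrin chain ITGB5, the cross-linking enzyme TGM2 and the plasminogen activator PLAT. Its median SD over 9 members was 0.40, the largest of the 11 groups, and 0.24 without the dim array. On the dim array 5 of the 9 had their lowest value, MGP, DCN, COL3A1, TGM2 and PLAT, and 0 had their highest. DCN was 4.92 on the dim array and 5.76 to 6.09 on the other 11, and TGM2 was 4.09 there and 5.22 to 5.61 elsewhere. TIMP3 was the steadiest of the group, with an SD of 0.16.

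Secreted products held 6 members: PENK (proenkephalin, the precursor of opioid peptides), the cysteine protease inhibitors CST3 and CST6, the selenium carrier SELENOP, the lipid carrier APOE and the secreted factor NENF. The median SD was 0.37, or 0.28 without the dim array. Iron, redox and lysosomal members numbered 10: the ferritin chains FTH1 and FTL, the peroxiredoxin PRDX1, LAMP1, CD63 and LAPTM4B of the lysosomal membrane, the protease CTSF, GM2A, which presents gangliosides to their hydrolase, the proton pump subunit ATP6V1G1 and the autophagy protein GABARAPL2. The median SD of the 9 measured was 0.24, or 0.25 without the dim array. Antigen presentation and antibody transport held BOLA (class I heavy chain), its partner B2M, and FCGRT, which carries IgG. BOLA and B2M were highest on the dim array.

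Cell surface and signalling proteins were the widest group, with 16 members: the epithelial adhesion protein EPCAM, the gap junction protein GJA1, the tetraspanin CD81, the endocytic receptor LRP1, the G-protein subunits GNAS and GNG11, the 14-3-3 proteins YWHAE and SFN, NET1, the lipid phosphatase PLPP3, the annexin ANXA2, the chloride channel protein CLIC1, PEBP1, the phosphatase CTDSP2, TMBIM6, which guards against cell death, and S100G, the vitamin D-dependent calcium carrier also known as calbindin-D9k. The median SD of the 15 measured was 0.33, from 0.11 (CTDSP2) to 1.01 (GJA1). EPCAM was 2.91 on CL-side autumn replicate 2 and 3.81 to 4.34 on the other 11 arrays.

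The 12 brightest members were TMSB4X (7.32), RPL27A (7.27), FTH1 (6.14), TIMP2 (6.06), TPT1 (6.05), MGP (6.04), BOLA (6.04), ACTB (5.96), DCN (5.86), EEF2 (5.65), FAU (5.61) and SELENOP (5.57). TMSB4X was saturated on 6 arrays and RPL27A on 7, and these are the members with saturated spots. The scanner's ceiling lay at 7.19 to 7.51 log2 units on 11 arrays, but at 8.32 on the dim array, where no probe was saturated. RPL27A was 7.98 on the dim array and 7.07 to 7.34 on the others, and was saturated on all 3 arrays of the CL side in autumn, which give only a bound. No fold is given for it against that group. FTH1, the ferritin heavy chain that stores iron, kept between 5.83 and 6.51, with its highest value on the dim array. SELENOP had 5.95, 5.33 and 5.54 on the CL side in summer, 5.56, 5.83 and 5.69 on the non-CL side, and in autumn 5.32, 5.22 and 5.48 on the CL side and 5.65, 5.53 and 5.68 on the non-CL side. Its CL-side autumn values lay below the non-CL autumn values.

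The 8 steadiest members were GOLGA2, EIF1, TMED10, CD63, OAZ1, HSP90B1, MRFAP1 and RNH1, with SDs from 0.054 to 0.11. GOLGA2, a tether for vesicles at the Golgi, had 3.71, 3.69 and 3.81 on the CL side in summer, 3.83, 3.80 and 3.81 on the non-CL side in summer, 3.80, 3.68 and 3.80 on the CL side in autumn and 3.78, 3.76 and 3.69 on the non-CL side in autumn. EIF1, which helps the ribosome choose its start codon, had 5.07, 5.09 and 4.95 on the CL side in summer, 4.92, 4.92 and 4.98 on the non-CL side in summer, 5.03, 5.11 and 4.99 on the CL side in autumn and 5.12, 5.14 and 5.04 on the non-CL side in autumn. Both stayed within 0.22 log2 units, the dim array included. TMED10 ranged from 3.82 to 4.14 and CD63 from 4.02 to 4.36. OAZ1 ranged from 3.70, on the dim array, to 4.04, and HSP90B1 from 3.72 to 4.15. MRFAP1 ranged from 4.39, again on the dim array, to 4.8, and RNH1 from 3.92 to 4.24.

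The 12 most variable members were PENK, MYLK, GJA1, GM2A, PLAT, CST6, COL3A1, ITGB5, PLPP3, BOLA, CCN2 and S100G. PENK had 5.62, −0.99 and 6.15 on the CL side in summer, 5.72, 6.48 and 6.27 on the non-CL side in summer, 5.41, 5.92 and 6.12 on the CL side in autumn and 5.52, 5.96 and 6.35 on the non-CL side in autumn. It was 122-fold below its median on the dim array and within 5.41 to 6.48 on the other 11, so its SD was 2.03 with and 0.35 without that array. PLAT was 1.33 on the dim array and 4.25 to 5.01 on the others (SD 0.97 with, 0.24 without). COL3A1, a collagen of soft stroma, was 3.39 on the dim array and 5.14 to 5.99 on the others (0.67 and 0.25), and PLPP3 2.90 and 4.47 to 4.78 (0.51 and 0.099). BOLA was 7.38 on the dim array and 5.5 to 6.23 on the others (0.48 and 0.24). Without that array the SDs of these 5 members lay between 0.099 and 0.35.

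The remaining 7 varied on other arrays too. GM2A was 1.53 on the dim array and 3.77 to 5.14 on the others (SD 0.99 with, 0.47 without). GJA1, connexin 43, had 3.65, 1.08 and 4.11 on the CL side in summer, 3.88, 3.41 and 4.09 on the non-CL side in summer, 4.17, 4.97 and 4.8 on the CL side in autumn and 4.81, 3.53 and 3.81 on the non-CL side in autumn. Its CL-side autumn values were above its CL-side summer values, while on the non-CL side the seasons overlapped. CST6 had 6.05, 5.98 and 4.73 on the CL side in summer, 4.32, 5.87 and 5.59 on the non-CL side in summer, 4.92, 4.72 and 4.21 on the CL side in autumn and 5.03, 4.18 and 5.16 on the non-CL side in autumn, high on 4 of 6 summer arrays. ITGB5 ranged from 2.71 on CL-side autumn replicate 2 to 4.66 on CL-side summer replicate 1 (SD 0.53 with and without the dim array). CCN2 was 3.21 on the former and up to 4.72 on non-CL summer replicate 3, and S100G ranged from 3.90 on the dim array to 5.38 on non-CL autumn replicate 2.

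**Figure D3:**
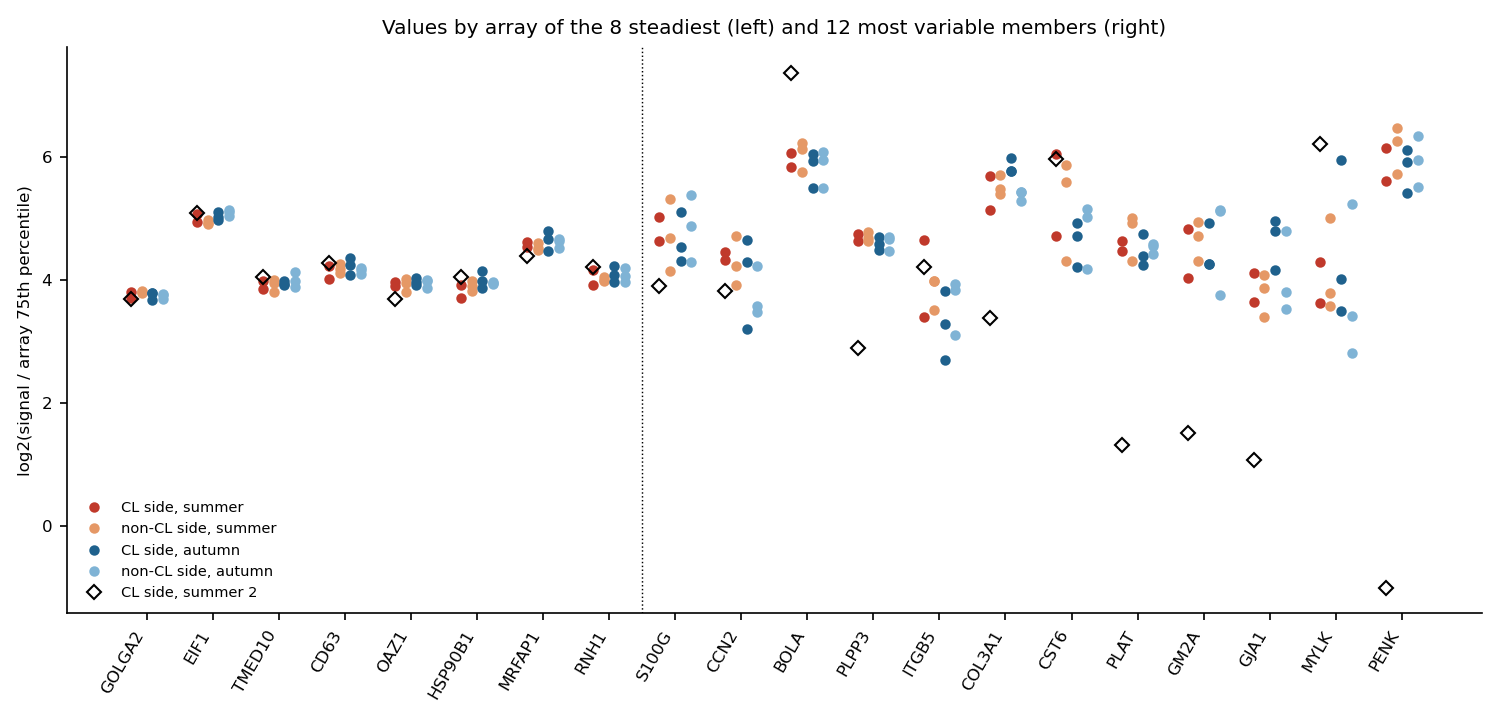
Log2 signal relative to the array's 75th percentile on each array, by group, for the 8 steadiest members (left of the dotted line) and the 12 most variable (right), with CL-side summer replicate 2 as an open diamond. PENK sits at −0.99 on that array and at 5.41 to 6.48 on the other 11, whereas GOLGA2 stays between 3.68 and 3.83.

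MYLK was high on 1 array of each group. It had 4.29, 6.21 and 3.63 on the CL side in summer, 3.59, 5.02 and 3.79 on the non-CL side in summer, 5.96, 4.02 and 3.5 on the CL side in autumn and 3.42, 5.24 and 2.82 on the non-CL side in autumn. Its SD was 1.07, and 0.93 without the dim array. The score of the 6 other smooth muscle markers tested was 1.61 on the dim array, 1.89 on CL-side autumn replicate 1, 0.96 on non-CL autumn replicate 2 and 0.83 on non-CL summer replicate 2, the 4 arrays on which MYLK was highest. It was between −1.26 and 0.081 on the other 8. On the dim array 4 of the 7 smooth muscle markers, MYLK and the desmin gene DES among them, were above every other array, while ACTA2, ACTG2 and CALD1 were not. DES had a log2 level of 2.59 there and −1.57 to 1.85 on the others, and ACTG2 2.92 and −1.16 to 3.76. COL3A1 and DCN belong to the stromal markers, and the score of the 5 other stromal markers was −1.72 on the dim array and −0.48 to 0.85 on the other 11. The part of muscle or stroma in these values was not tested.

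**Figure D4:**
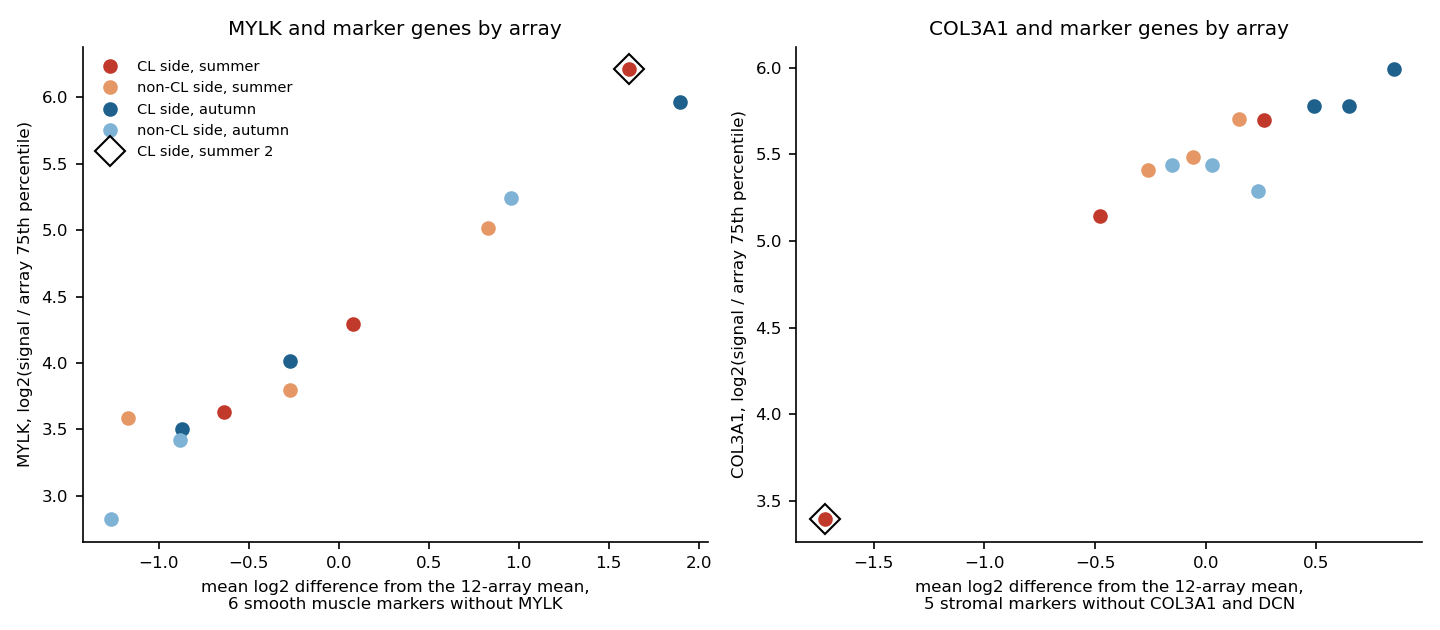
MYLK against the mean of 6 other smooth muscle markers (left) and COL3A1 against the mean of 5 other stromal markers (right), each as log2 values by array and coloured by group, with CL-side summer replicate 2 ringed by a diamond. The 4 arrays with MYLK above 5 have marker scores of 0.83 or more, and the dim array lies apart at a COL3A1 level of 3.39.

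Season was compared first on the CL side. No member and no other probe passed an adjusted p of 0.05 in limma (0 of 97 members, against 0% of 12381 probes), and the smallest adjusted p of a member was 0.496. At an unadjusted p under 0.05 stood 8 members (8.25%), against 9.92% of all probes. Of these 3 had higher values in summer, PRDX1, PNP and GABARAPL2 (6.37% of all probes), and 5 lower values, GJA1, AP2M1, COL3A1, TMSB10 and SSR2 (3.55% of all probes). The median change was 0.018 log2 units over the members and 0.023 over all probes, and 84 of the 97 members had a change of less than 0.5.

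PRDX1, which removes peroxides, had 5.22, 4.99 and 4.28 in summer and 4.43, 4.23 and 4.18 in autumn on the CL side. These ranges overlap by a single array, and the change was 0.56 ± 0.24 (SE, unadjusted p = 0.0393, limma's adjusted p = 0.498). Without CL-side summer replicate 1 it was 0.36. PNP had 5.37, 5.71 and 5.40 in summer and 5.15, 4.56 and 5.11 in autumn, which do not overlap, a change of 0.55 ± 0.24 that was 0.36 without CL-side autumn replicate 2 and 0.34 on the first slide alone. GABARAPL2 had 4.50, 4.13 and 3.95 against 3.92, 3.49 and 3.90, a change of 0.42 ± 0.19, which was 0.27 without CL-side summer replicate 1 and 0.27 on the first slide alone.

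Among those with lower values, GJA1 had a change of −1.70 ± 0.67 (limma's adjusted p = 0.496), with all 3 summer arrays below the autumn arrays, and of −0.77 without the dim array. COL3A1 had 5.14, 3.39 and 5.70 in summer and 5.78, 5.99 and 5.78 in autumn. Its change was −1.10 ± 0.45, or −0.43 without the dim array. AP2M1, a subunit of the clathrin adaptor, had 3.65, 3.75 and 3.48 in summer and 3.98 and 3.99 on the 2 unflagged autumn arrays, the third being dropped from the fit. Its change was −0.36 ± 0.14, or −0.21 in the authors' values. TMSB10 had 3.48, 3.86 and 3.71 against 4.02, 4.32 and 3.85, a change of −0.38 ± 0.17 in which the seasons overlap narrowly. SSR2 had 4.53, 4.86 and 4.67 against 5.01, 5.16 and 4.87, with no overlap and a change of −0.33 ± 0.15.

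The seasons did not overlap on the CL side for 11 of 92 members measured on all 6 arrays, against 13% of all probes. These were PNP, B2M, GABARAPL2 and DDB1 with higher values in summer (7.97% of all probes) and DCN, COL3A1, CTDSP2, SSR2, GNAS, CCNG1 and GJA1 with lower (5.02%). Without the dim array 5 members had an unadjusted p under 0.05, SELENOP at 0.40, SSR2 at −0.41, AP2M1 at −0.42, COL3A1 at −0.43 and TMSB10 at −0.47, against 5.57% of all probes. Without CL-side autumn replicate 2 the count was 0, against 5.54%, and without CL-side summer replicate 3 it was 13, against 17.0%. It was 5 without CL-side autumn replicate 3 (9.37% of all probes) and without non-CL summer replicate 1 (9.62%), 2 (8.35%) or 3 (8.19%).

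The same question on the non-CL side gave 0 of 98 members past an adjusted p of 0.05 in limma (0% of all probes) and 0 past an unadjusted p of 0.05 (1.12% of all probes, 0.622% higher and 0.501% lower). FTL, the light ferritin chain, had 5.15, 5.0 and 4.93 against 4.66, 4.68 and 4.91, a change of 0.28 ± 0.18 (limma's adjusted p = 1). The ranges lie just apart. For CCN2 the change was 0.52 ± 0.37, or 0.30 without non-CL summer replicate 3 and 0.31 with the slide as a block. Lower values in summer were found for GDI2 (−0.18 ± 0.13), EIF1 (−0.16 ± 0.11) and CCNG1 (−0.22 ± 0.17). Without non-CL autumn replicate 1 they were −0.11 for GDI2 and −0.13 for CCNG1, and on the first slide −0.33 and −0.42. CCNG1 had −0.13 without non-CL summer replicate 2 and −0.34 without non-CL autumn replicate 3. The seasons did not overlap for 8 of 93 members, against 6.07% of all probes: 5 members, among them CALR, FTL, CLTA and GOLGA2, had higher values in summer (2.62% of all probes), and EIF1, SSR2 and GDI2 lower (3.45%). GOLGA2 and EIF1, the 2 steadiest members, are among them.

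The next comparison asked whether the 2 horns differed in summer. The fit did not pair same-numbered horns, here or in autumn, and counts from fits with the number as a block are given further below. Again 0 of 98 members passed an adjusted p of 0.05 in limma (0% of all probes) and 0 an unadjusted p of 0.05 (1.41%, 0.977% higher on the CL side and 0.436% lower). The smallest p-values belonged to B2M (0.50 ± 0.27 higher on the CL side), EEF1B2 (0.28 ± 0.17), SLC25A6 (0.38 ± 0.25), PLAT (−1.26 ± 0.70), PENK (−2.57 ± 1.45) and TGM2 (−0.52 ± 0.29), with an adjusted p of 0.984 for each. Without the dim array the change was 0.16 for B2M, 0.086 for EEF1B2, 0.10 for SLC25A6, −0.18 for PLAT, −0.27 for PENK and −0.10 for TGM2. EIF3E, with higher values on the CL side, was the 1 member of 95 whose horns did not overlap in summer, against 3.52% of all probes (1.88% higher and 1.65% lower). Leaving out CL-side summer replicate 3 gave 10 members at an unadjusted p under 0.05, against 8.78% of all probes, and leaving out replicate 1 gave 3, against 5.54%. In both cases the dim array is 1 of the 2 arrays left in the group.

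In autumn 0 of 97 members passed an adjusted p of 0.05 between the horns in limma (0% of all probes), and 2 had an unadjusted p under 0.05, both higher on the CL side, against 1.86% of all probes (0.8% higher and 1.06% lower). TMSB10 had 4.02, 4.32 and 3.85 on the CL side and 3.55, 3.74 and 3.37 on the non-CL side. The horns do not overlap, and the difference was 0.51 ± 0.17 (unadjusted p = 0.0126, limma's adjusted p = 1). AP2M1, fitted without its flagged CL-side array, had a difference of 0.32 ± 0.14, and 0.18 in the authors' values. SFN, a 14-3-3 protein of epithelia, had 0.46 ± 0.27, with 0.28 without non-CL autumn replicate 1, 0.70 without non-CL autumn replicate 3 and 1.0 on the first slide, which holds 1 autumn array of each horn. Lower values on the CL side were found for EPCAM (−0.51 ± 0.26), PNP (−0.41 ± 0.24) and SELENOP (−0.28 ± 0.17). Without CL-side autumn replicate 2 the difference was −0.18 for EPCAM and −0.22 for PNP. On the first slide it was 0.14 for EPCAM and −0.026 for PNP. With quantile normalization SELENOP had −0.43. The horns did not overlap for 7 of 90 members, against 7.9% of all probes, FTH1, DCN, COL3A1, EEF1B2 and TMSB10 with higher values on the CL side (2.35% of all probes) and SELENOP and PNP with lower (5.55%). Without the dim array, which enters here only through the shared spread, 4 members had an unadjusted p under 0.05 (3.84% of all probes), COL3A1, EEF1B2, AP2M1 and TMSB10. Without CL-side autumn replicate 2 there were 0 (1.11%).

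**Figure D5:**
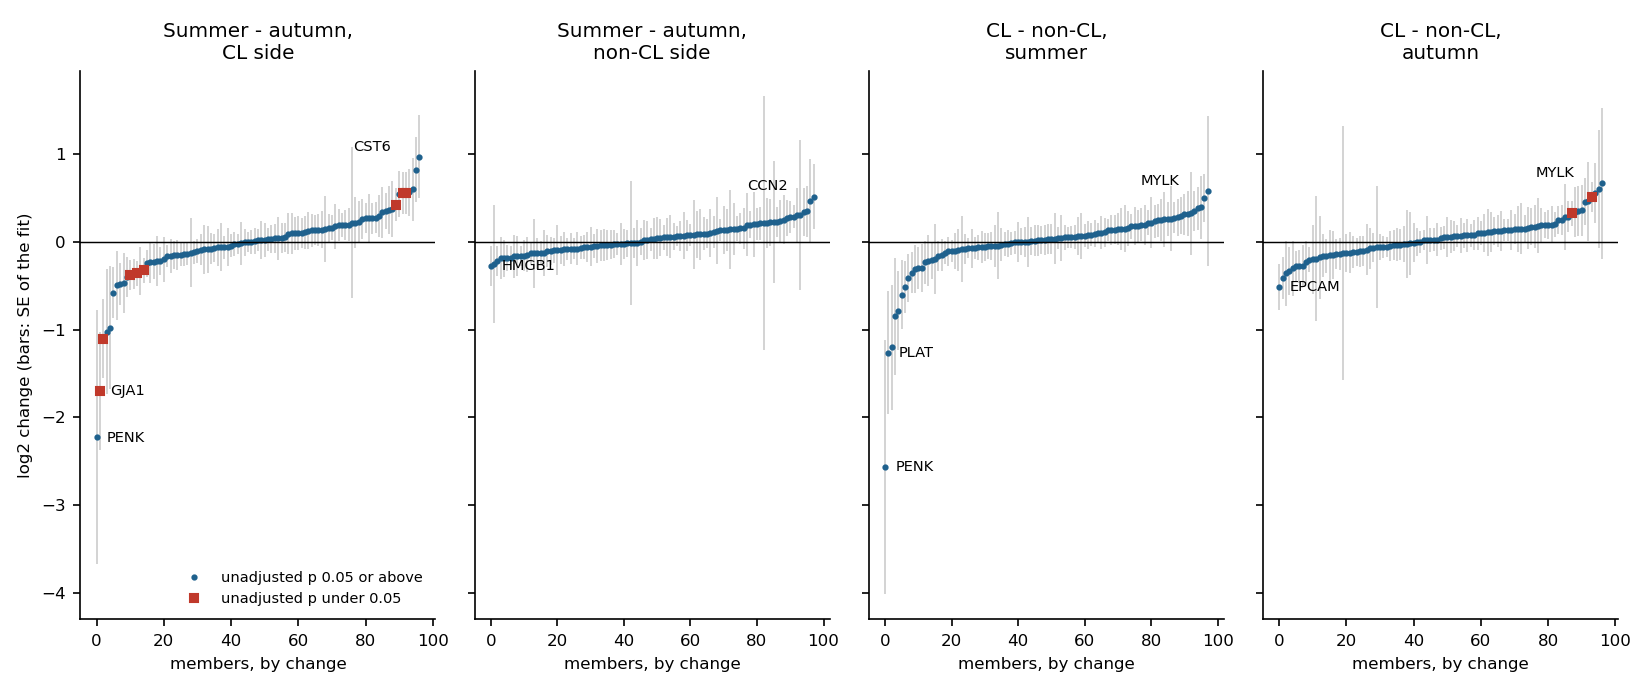
Log2 change of each member with its SE, in order of size, for the season change on each side and the difference between horns in each season, with red squares for an unadjusted p under 0.05. The red squares number 8, 0, 0 and 2, and the largest changes, of PENK at −2.23 and −2.57, are in the panels that hold CL-side summer replicate 2.

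Whether the season change differed between the sides was tested as an interaction, and 0 of 97 members passed an adjusted p of 0.05 in limma (0% of all probes). An unadjusted p under 0.05 was found for 1 member, AP2M1 (−0.43 ± 0.19), against 1.88% of all probes (1.26% higher and 0.622% lower). Leaving out CL-side summer replicate 3 gave 4 members, against 6.09% of all probes. With the replicate number as a block the count was 0, and AP2M1 had −0.29 in the authors' values. Next in order of p came COL3A1 (−1.25 ± 0.64, or −0.57 without the dim array) and TGM2 (−0.67 ± 0.41, or −0.25 without it, and −0.33 on the first slide alone) on the lower side, and EPCAM (0.55 ± 0.37), DDB1 (0.48 ± 0.34) and PRDX1 (0.42 ± 0.33) on the upper. EPCAM had 0.22 without CL-side autumn replicate 2 and −0.096 on the first slide. DDB1 had 0.23 without non-CL summer replicate 2, 0.30 without CL-side autumn replicate 2 and 0.32 on the first slide. PRDX1 had 0.22 without CL-side summer replicate 1. limma's F-test among the 4 groups gave 0 of 97 members at an adjusted p of 0.05 (0% of all probes). At an unadjusted p under 0.05 it gave TMSB10 alone, or 1 member, against 3.43% of all probes. PNP and CCNG1 followed.

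The horns that share a replicate number and season were closer to each other than horns of different numbers for 59 of 97 members, and for 65.1% of all probes. The median distance was 0.16 log2 units between same-numbered horns and 0.19 between the others, and 0.14 and 0.16 without the dim array.

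Other genes of the same functions were taken from 13 lists, and 0 genes of any list passed an adjusted p of 0.05 in any of the 5 contrasts of limma. The list of translation factors had 31 genes on the array, 9 of them members, with a median SD of 0.22 over 30 tested and its extremes at EIF1 (0.077) and EIF4B (0.59). Ubiquitin and proteasome genes were the steadiest list, at 0.16 over 26 genes, from PSMA6 (0.11) to PSMA4 (0.33), with PSMB4 among its 2 members. The secretory pathway followed, at 0.20 over 31 genes, from TMED10 (0.088) to the hyaluronan receptor CD44 (0.68), with 9 members. Glycolysis and energy carriers had 0.24 over 29 genes, from CYC1 (0.13) to the creatine kinase CKB (0.75), and SLC25A6 is the member among them. Lists with a larger spread were those of the matrix, at 0.50 over 29 genes with 6 members, and of uterine secreted and epithelial products, at 0.74 over 19 genes with the members S100G, TIMP2 and APOE. In the matrix list, which was chosen with results of these arrays known, 1 gene was higher and 9 were lower in summer on the CL side at an unadjusted p under 0.05, against 6.37% and 3.55% of all probes. On the CL side against the other in autumn 6 of the 29 were higher and 0 lower, against 0.8% and 1.06%. In the list of signalling adaptors, with 30 genes, 5 were higher and 0 lower in summer on the CL side, against the same 6.37% and 3.55%. In the list of uterine products 5 of 19 were higher and 0 lower in summer on the CL side, against 6.37% and 3.55% of all probes. Between the horns in summer 4 of the 19 were higher and 0 lower on the CL side, against 0.977% and 0.436%. Both of these contrasts hold the dim array.

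The remaining lists lay between these. Actin and contraction had a median SD of 0.31 over 36 genes, from ARPC5 (0.082) to the smooth muscle actin ACTG2 (1.84), with 7 members. Antigen presentation had 0.35 over 11 genes, calcium-binding proteins 0.31 over 20, and lysosome, iron and redox genes 0.30 over 33 with 9 members, from OAZ1 to the glutathione peroxidase GPX3 (1.1). Chromatin and RNA-binding genes had 0.29 over 28 genes, signalling adaptors 0.32 over 30, from GNB1 (0.15) to the immediate early gene FOS (2.31), and tubulins and intermediate filaments 0.49 over 17, from MAP1LC3B (0.096) to the keratin KRT7 (1.25). The 9 members of the secretory list had a median SD of 0.14 and the 7 of the actin list 0.34. At an unadjusted p under 0.05 in summer on the CL side, 3 genes were higher and 2 lower among tubulins and intermediate filaments. Calcium-binding proteins also had 3 higher and 2 lower, and the actin list 1 higher and 4 lower, against 6.37% and 3.55% of all probes. The lists not counted here or above had at most 2 in either direction.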

How the data were processed

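Each of the 12 samples was hybridised alone, from 400 ng of total RNA labelled with Cy3, to a 1-colour Agilent bovine array of 15208 non-control probes with 60 bases each. Feature Extraction 9.5.1.1 read the scans, per the file headers (9.5 in the submitters' processing notes). The deposited processed signal is an intensity on a linear scale, background-subtracted and detrended within the array, per the file headers. The deposited mean and background intensities entered only the normexp alternative. The authors' deposited table holds log2 values with scale and centring unstated. Its columns ran in the scanner's direction (correlations 0.970 to 0.995), had 75th percentiles close to 0 and medians of −2.79 to −2.61, and how it treats low signals is unknown.

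Signals were divided by the array's 75th percentile and put on the log2 scale, with a floor of −7.28. The ranking used all spots, and tests and SDs left out 466 outlier-flagged values and needed at least 9 values for an SD. Names came from the RefSeq gene table of ARS-UCD2.0 (names only), by accession for 51 members, symbol for 21, gene ID for 16, synonym for 10, and from the files for 2. In all 6154 probes had a symbol, 52 a locus name only and 9002 none. A probe entered the fit where some group had it well above background on each of its arrays (12404 probes, with 2804 removed). The fit used limma 3.58.1 (R 4.3.3; lmFit, eBayes, 4 group means, two-sided, Benjamini-Hochberg over all kept probes, threshold 0.05), after a check of the script on simulated data. The members and gene lists were chosen with earlier results of these data known. The values of 1 member are not reported here by name. Values were given for the 12 brightest, 8 steadiest and 12 most variable members, and, where none passed the threshold, up to 3 per direction with the smallest p. For the CL-side season change TMSB10 and SSR2, also at an unadjusted p under 0.05, are given as well. Further members appear as examples in the functional groups.

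Same-numbered horns of a season deviated together from their group means. Correlations were 0.50, 0.40 and 0.27 in summer and 0.30, 0.14 and 0.38 in autumn, against −0.42 to 0.032 between other numbers. Deviations within a group cancel out, so positive values for same numbers make those for other numbers negative on average. The labels do not say whether same-numbered horns came from the same cow, and in autumn the numbers also differ by slide. The first slide held all summer arrays and autumn replicate 1 of both sides, the second the rest. Alternatives were other scalings and backgrounds, the authors' values, no filter, saturated spots missing, each array left out, and slide or replicate number as a block. Precision is limited by how few arrays each group has.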

Additional observations from a re-analysis of the deposited data

How the results depend on the processing

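The count of members past an adjusted p of 0.05 stayed at 0 in every contrast under every alternative run, the replicate block included (0 with season and number as the block and 0 with the number over all 12 arrays). At an unadjusted p under 0.05 the 2 block fits gave 7 and 9 members for the CL-side season change (8 without a block), 1 and 0 for the non-CL side (0), 0 and 0 for the horns in summer (0), 1 and 1 for the horns in autumn (2) and 0 and 0 for the interaction (1). The median SD of the members, 0.23, was 0.21 with quantile normalization, 0.23 with the authors' values and 0.24 with median scaling, and ran from 0.18 (without the dim array) to 0.24 when single arrays were left out. Over the arrays left out, counts at an unadjusted p under 0.05 ran from 0 to 13 for the CL-side season change (5.54% to 17% of all probes). They ran from 0 to 10 for the horns in summer (0.658% to 8.78%) and 0 to 4 for the horns in autumn (1.11% to 3.84%). The interaction had 0 to 4 (1% to 6.09%) and the non-CL season change 0 to 1 (0.459% to 3.04%). Under the other settings, blocks included, the CL-side season count ran from 1 to 10, with 4 under the slide block, and the non-CL count from 0 to 3. These settings include the first slide alone, which holds 1 autumn array of each horn. For the block fits and other settings the share over all probes is not given, so those counts are not read as a result about the members. Of the named changes, 2 turned direction, both for EPCAM on the first slide alone, to 0.14 between the horns in autumn and −0.096 for the interaction. Of the 100 members, 99 were shared with a ranking after quantile normalization, 97 after normexp, and 100 after median scaling or with the authors' values. Rankings added after seeing the data shared 97 without the dim array and 73 on the dim array alone. Saturation limits TMSB4X and RPL27A.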

Other observations

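A ranking of the dim array alone, by the same rule, left out 27 of the members, among them PENK, PLAT, GM2A, GJA1, COL3A1, PLPP3, APOE, LRP1 and CCN2. The 27 genes that took their places were chosen after their values were seen and include the keratin KRT8, the claudin CLDN3, the iron-binding LTF, the acute phase gene SAA3, the chemokine CXCL3, the water channel AQP4, the neuropeptide precursor NTS, the smooth muscle calponin CNN1 and XBP1, a regulator of secretory cells. They also include BTF3, NOP53, PSMC5 and NDUFA13. All 27 entered by their level on the dim array, so high values there follow from the choice. KRT8 was 4.0 on the dim array and 1.92 to 2.74 on the other 11, and CLDN3 3.98 and 1.18 to 3.91. CNN1 was 5.19 and 0.89 to 4.68, and XBP1 3.91 and 3.11 to 3.76.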
